A study of Macaca fascicularis with 8 samples.

Results

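The mitochondrial ribosomal proteins are nuclear-encoded subunits of the ribosome that works inside mitochondria, and their transcripts were compared here between 2 states of embryonic stem cells (ESCs) of the cynomolgus monkey, Macaca fascicularis. Members were the genes whose deposited name began with MRPL or MRPS, or whose best protein match was a 39S or 28S ribosomal protein at 85% identity or more, with 1 gene per protein name. They numbered 70 of 33121 genes, 41 of the large (39S) and 29 of the small (28S) subunit, counted by their names. Of these, 15 were found by gene name and 55 by best match. Where a name had several rows, the most abundant one, by its mean level, was used. The nearest rows outside the identity limit matched MRPL48 at 83.65% and MRPS18A at 83.44%, and the nearest inside it were spare rows matching MRPL35 at 86.44% and MRPS15 at 86.96%.

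Primed ESCs had been grown as flat colonies in CESM, a mixture of a commercial medium for human pluripotent cells with conventional monkey ESC medium, and their labels rate passage as single cells weak. Dome-shaped ESCs had been grown in NHSMV, a medium on a knockout DMEM base with AlbuMAXI, N2 supplement, insulin, LIF, bFGF, TGF-β1, glutamine, amino acids, β-mercaptoethanol, vitamin C and the inhibitors PD0325901 (MEK), CHIR99021 (GSK3), SB202190 and SB203580 (p38) and SP600125 (JNK). Their labels rate passage as single cells strong. Each group had 4 libraries of polyadenylated RNA, and medium, colony shape and group coincide and cannot be told apart. The labels do not say whether libraries of a group came from separate cultures or animals. Library titles carry a number after CES, and some libraries of the same group share it. The 4 libraries of a group therefore hold fewer than 4 such numbers, and each number occurs in both groups. Libraries that share a number may not be independent, so n = 4 counts libraries only. The p-values measure the spread between these libraries, which may be technical.

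The mitochondrial ribosome translates the few messages of the mitochondrial genome, which encode core subunits of the respiratory chain and the ATP synthase. Its ribosomal RNAs come from mitochondrial DNA, whereas all of its proteins are made in the cytosol and imported. Part of the proteins have counterparts in bacterial ribosomes, and others are found in mitochondria only. The small subunit binds and reads the message, and the large subunit joins amino acids and passes the new chain to the inner membrane.

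Libraries held 14401000 to 18076000 reads, as implied by the RPKM values and gene lengths. RPKM scales the reads of a gene by its length and by the depth of the library, so it is a relative measure, and in such bulk samples fewer cells of a type and less RNA per cell cannot be told apart. Of 11 pluripotency markers, 7 had a row and none of those was at 0. DNMT3B, TDGF1 and TERF1 passed the test as lower in dome-shaped cells, while SOX2, NANOG, LIN28A and SALL4 were not called. POU5F1 was not on the list. The 7 summed to 2676 to 3250 RPKM in primed and 1833 to 2709 RPKM in dome-shaped libraries. KRT7 of the trophoblast markers was also lower, while GATA3 and TFAP2A were not called. Of the 4 fibroblast markers tested, 1 was lower, PDGFRB. These calls stand beside 7.96% of all genes tested that were lower. Summed trophoblast markers (3 of 5 found) ranged over 19.2 to 81.8 RPKM in primed and 4.92 to 10.0 RPKM in dome-shaped libraries. Summed fibroblast markers (7 of 9 found, DCN and POSTN under 1 RPKM in all libraries) ranged over 26.1 to 66.6 RPKM in primed and 21.1 to 30.9 RPKM in dome-shaped libraries. Of the endoderm markers GATA6 (1 of 4 found) had 1.69 to 17.2 RPKM in primed and 0.467 to 7.65 RPKM in dome-shaped libraries, and of the neural markers ZIC1 (1 of 3 found) had 0.165 to 3.64 and 0.258 to 13.1 RPKM. The part of these cells in the results below was not tested.

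Transcripts of the mitochondrial ribosome stood at nearly the same level in both states. A gene was tested when it reached 1 RPKM in at least 4 of the 8 libraries, and 68 of the 70 members did so, 40 of the large and 28 of the small subunit. By limma on log2(RPKM + 1), with p-values adjusted by Benjamini-Hochberg across the 15597 genes tested, 4 members (5.88%) differed between the states at an adjusted p under 0.05. Of all genes tested, 14.3% differed, and of the 7671 genes with a mean in the members' range of 12.1 to 256 RPKM, 13.7% did. Of the large subunit, 1 member was higher in dome-shaped cells (MRPL45) and 1 lower (MRPL34). Of the small subunit, 0 were higher and 2 lower (MRPS2 and MRPS26). At an unadjusted p under 0.05, 2 large subunit members were higher and 5 lower, and 1 small subunit member was higher and 4 lower. Among all 15597 genes tested, 2526 were higher and 2404 lower at that level. At the adjusted threshold, 6.38% of all genes tested were higher and 7.96% lower. In a limma fit that also blocked the libraries by the number after CES, 0 members of either subunit were called.

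The estimates were small as well as rarely past the threshold. They ran from -0.40 for MRPL34 to 0.29 for MRPL41 on the log2 scale, that is from 0.759-fold to 1.22-fold. Above 0 were 32 members and below it 36, beside 8301 and 7296 of all genes tested. No member's estimate lay beyond 1.5-fold in either direction, which 16.5% of all genes tested and 9.5% of those in the members' range did. The 95% interval stayed within 1.5-fold for 65 of 68 members, against 50.0% of all genes tested and 69.4% of those in the same range; the exceptions were MRPL34, MRPL41 and MRPS2. The median log2 fold change was -0.03 for the large subunit and 0.02 for the small subunit, beside 0.03 for all genes tested. Median-of-ratios scaling moved these medians to -0.05 and -0.01, so the small subunit median changed sign with the scaling. The large subunit median stayed below 0 in every alternative run (-0.05 to -0.01).

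**Figure D1:**
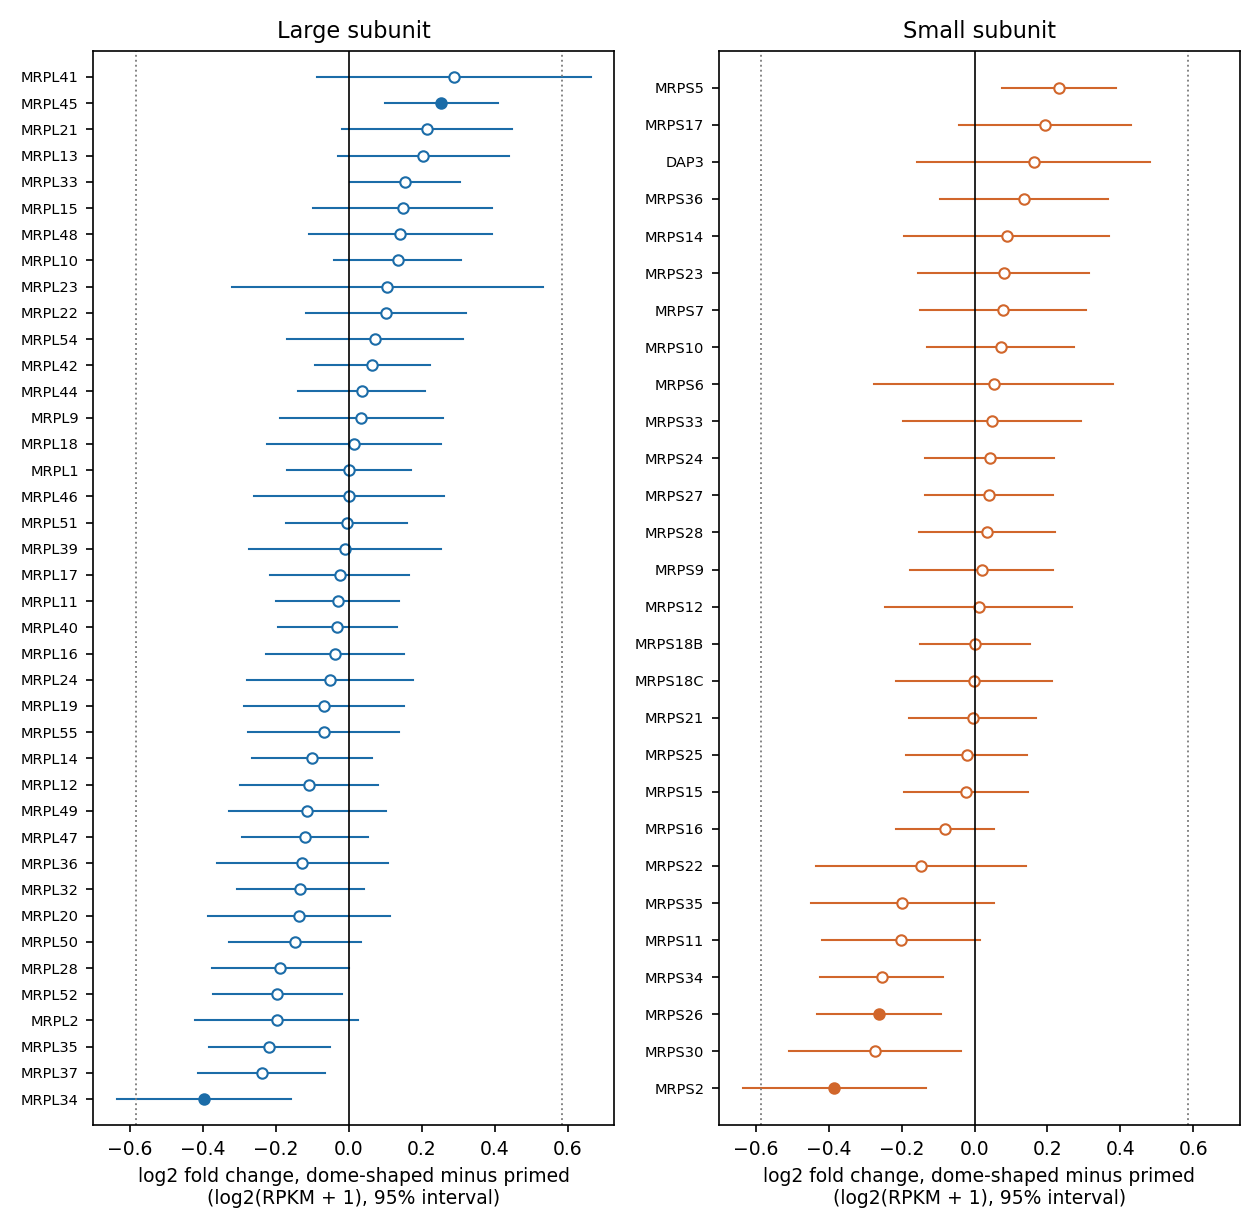
Estimated log2 fold change (dome-shaped minus primed, on log2(RPKM + 1)) with its 95% interval from limma for the 40 large and 28 small subunit members tested. Filled points passed an adjusted p of 0.05 and dotted lines mark 1.5-fold; 4 members passed, and the intervals of 3 members (MRPL34, MRPL41 and MRPS2) reach past a dotted line.

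**Figure D2:**
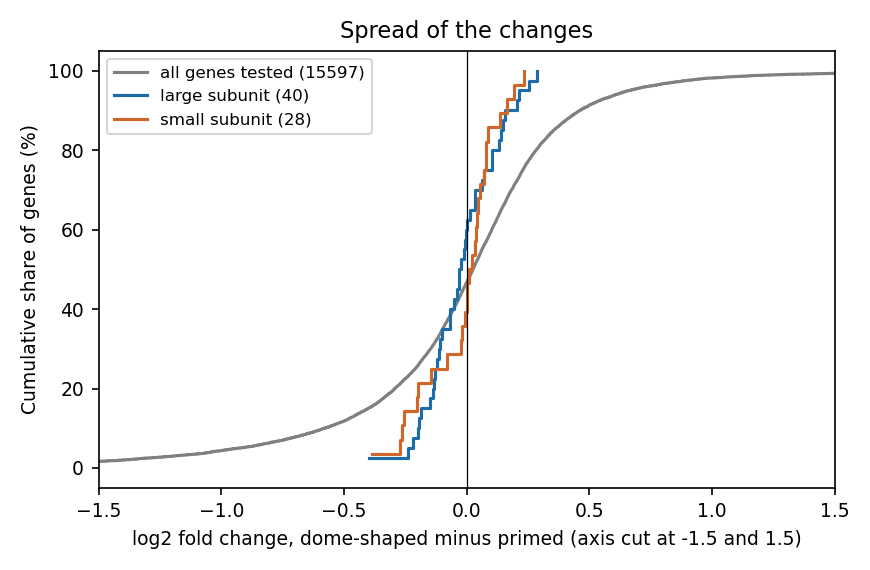
Cumulative share of genes (%) against the log2 fold change, dome-shaped minus primed, for all 15597 genes tested (grey), the large subunit (blue) and the small subunit (orange); the axis ends at 1.5 in either direction. Both subunit curves climb between -0.40 and 0.29, while the curve of all genes is wider.

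The 4 libraries of one state lay wholly above or below the 4 of the other for 11 members (16.2%), beside 22.2% of all genes tested. In 3 of these 11 the dome-shaped libraries were the higher ones (MRPL33, MRPL45 and MRPS5). In the other 8 they were the lower ones (MRPL32, MRPL34, MRPL35, MRPL37, MRPS2, MRPS11, MRPS26 and MRPS34). Of the 3462 genes without overlap among all genes tested, the dome-shaped libraries were the higher ones in 1786. The difference in direction was not tested. MRPL32, MRPL33 and MRPS11 are named here because of this pattern, after their values were seen.

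MRPL34, the mitochondrial form of a small basic protein of the bacterial large subunit, had the lowest estimate of all members. It stood at 135, 110, 105 and 117 RPKM in primed libraries 1 to 4 and at 75.6, 92.8, 86.2 and 99.7 RPKM in dome-shaped libraries 1 to 4. Every dome-shaped library was below every primed one, with primed replicate 1 the highest and dome-shaped replicate 1 the lowest. The means were 117 ± 12.8 and 88.6 ± 10.3 RPKM (SD, n = 4 each). The log2 fold change was -0.40 (SE 0.11, limma adjusted p = 0.0369). Of fits with fewer libraries, 2 of the 8 fits that each left out a library kept it (without primed replicate 3 and without dome-shaped replicate 4), with adjusted p from 0.0236 to 0.0885. With no filter the call was lost as well (adjusted p = 0.0578).

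MRPL45, which lies at the exit of the peptide tunnel and faces the inner membrane, was the only member called higher. Its values were 116, 101, 99.7 and 104 RPKM in primed libraries 1 to 4 and 121, 124, 125 and 130 RPKM in dome-shaped libraries 1 to 4. All dome-shaped libraries lay above all primed ones, although primed replicate 1 came within a few RPKM of the lowest. The means were 105 ± 7.54 and 125 ± 3.49 RPKM (SD, n = 4 each), and the log2 fold change was 0.25 (SE 0.07, adjusted p = 0.0389). The call held in 2 of the 8 fits without a library (primed replicate 1 and dome-shaped replicate 1), with adjusted p up to 0.117, and it was lost with median-of-ratios scaling (0.0788). The member's row is a fragment with a deposited length of 152 bases, and at least 250 reads lay behind each value. A further row whose matches name MRPL45, which the choice of members did not take, averaged 95.6 ± 2.83 RPKM over the primed and 109 ± 8.14 RPKM over the dome-shaped libraries. Its groups did not overlap either, and its log2 fold change of 0.18 (SE 0.07) had an adjusted p of 0.116.

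MRPS2, the counterpart of bacterial protein S2, had the lowest estimate in the small subunit. Primed libraries 1 to 4 gave 66.9, 70.7, 80.3 and 64.8 RPKM and dome-shaped libraries 1 to 4 gave 45.4, 50.6, 59.8 and 60.6 RPKM. The groups did not overlap, and dome-shaped replicate 4 was the closest to the primed values. The means of 70.7 ± 6.86 and 54.1 ± 7.38 RPKM (SD, n = 4 each) differed by -0.38 on the log2 scale (SE 0.11, adjusted p = 0.0489). Of the 8 fits without a library, 1 kept the call (dome-shaped replicate 4 left out), and adjusted p ranged from 0.0339 to 0.12. It was also lost with a pseudocount of 0.1 (0.0508), median-of-ratios scaling (0.0504), no filter (0.0727) and a minimum mean of 5 RPKM (0.0507).

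MRPS26, a small subunit protein without a bacterial counterpart, was tightly grouped in primed cells. Its values were 141, 141, 140 and 146 RPKM in primed libraries 1 to 4 and 120, 104, 125 and 127 RPKM in dome-shaped libraries 1 to 4. Dome-shaped replicate 2 was the lowest, and no dome-shaped library reached the primed range. The means were 142 ± 2.78 and 119 ± 10.6 RPKM (SD, n = 4 each), and the log2 fold change was -0.26 (SE 0.08, adjusted p = 0.048). This call too was kept in 1 of the 8 fits, the one without dome-shaped replicate 4, with adjusted p from 0.0412 to 0.112. It was also lost with quantile normalization (0.0537), with no filter (0.0634) and with a mean of at least 5 RPKM (0.0507).

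Several members came close to the threshold without passing it. MRPS34, a protein of the foot of the small subunit that is known from inherited disease of mitochondrial translation, had 222, 208, 196 and 209 RPKM in primed libraries 1 to 4 and 158, 172, 189 and 182 RPKM in dome-shaped libraries 1 to 4. The groups did not overlap, and the log2 fold change was -0.25 (SE 0.07, adjusted p = 0.0509). MRPS5, which lines the entry of the message channel, had 73.2, 70.9, 76.7 and 66.6 RPKM in primed and 88.1, 85.6, 84.4 and 79.9 RPKM in dome-shaped libraries. Its groups did not overlap either (log2 fold change 0.23, SE 0.07, adjusted p = 0.0527, and 0.0468 without dome-shaped replicate 4). Only that 1 of the 8 fits without a library passed, and the limma adjusted p reached 0.134 in the others.

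MRPL37, a protein found in mitochondria only, had 119, 119, 122 and 119 RPKM in primed and 112, 88.7, 106 and 101 RPKM in dome-shaped libraries 1 to 4. The primed libraries lay within a narrow band above all dome-shaped ones (log2 fold change -0.24, SE 0.08, adjusted p = 0.0683, and 0.0375 without dome-shaped replicate 1). MRPL35, a counterpart of bacterial L35, had 143, 146, 152 and 124 RPKM in primed and 121, 117, 122 and 123 RPKM in dome-shaped libraries. Primed replicate 4 nearly met the dome-shaped range (log2 fold change -0.22, SE 0.07, adjusted p = 0.0772, and 0.0419 without primed replicate 4). A further row whose matches name MRPL35, which the choice of members did not take, had groups that overlapped. It averaged 79.9 ± 9.07 RPKM over the primed and 73.2 ± 3.58 RPKM over the dome-shaped libraries (log2 fold change -0.12, SE 0.09, limma adjusted p = 0.393). MRPS30 carries a small subunit name but is known from structures to sit in the large subunit. Its means were 77.0 ± 5.01 RPKM (primed) and 63.9 ± 9.28 RPKM (dome-shaped), and dome-shaped replicate 4, at 76.7 RPKM, lay within the primed range. Its adjusted p was 0.11 with all libraries and 0.023 without dome-shaped replicate 4. For each of MRPL37, MRPL35 and MRPS30, only 1 of the 8 fits without a library passed, the one given here. In the other fits the limma adjusted p reached 0.148, 0.187 and 0.223, in that order.

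**Figure D3:**
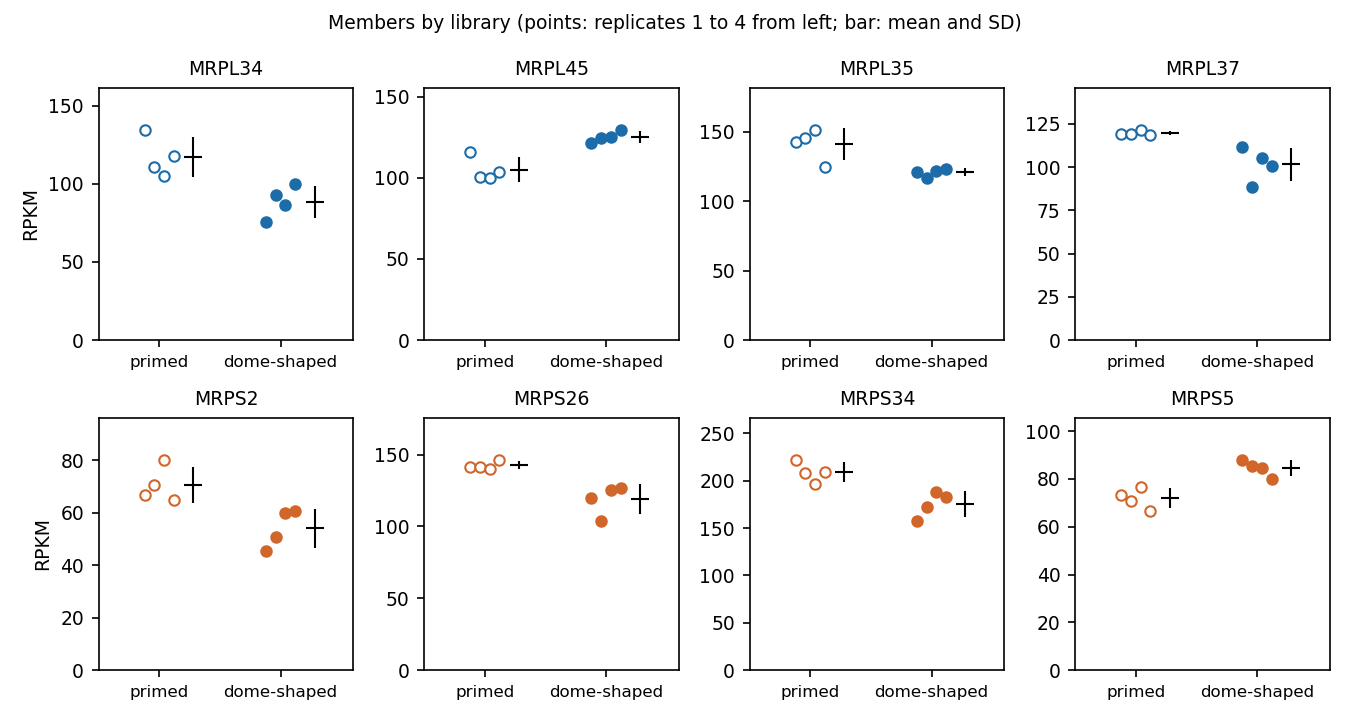
RPKM (linear axes from 0) of 8 members in each library, with replicates 1 to 4 from left to right as points and the mean and SD (n = 4) as a bar beside them; open points are primed and filled points dome-shaped, blue for the large and orange for the small subunit. All 8 are among the 11 members whose groups do not overlap (16.2% of members, beside 22.2% of all genes tested). The lack of overlap in the panels therefore follows from the choice of members. Dome-shaped libraries are the higher ones for MRPL45 and MRPS5.

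Some members were arranged by place in the ribosome, a grouping made after the values were known. Of the called members only MRPL45 was placed in a region, while MRPL34, MRPS2 and MRPS26 were not placed. MRPS34, MRPL35, MRPL37 and MRPS30, which came closer to the threshold than most, were not placed either. The counts by region therefore do not describe how calls lie over the whole ribosome. They are to be read beside the 14.3% called among all genes tested. The stalk that recruits translation factors is built from MRPL10, MRPL11 and MRPL12, and these were among the more abundant members. MRPL10 had means of 117 ± 8.12 and 128 ± 8.33 RPKM in primed and dome-shaped cells, and MRPL11 had 128 ± 6.46 and 125 ± 9.41 RPKM. MRPL12, the flexible factor-binding protein of the stalk that is also known to bind the mitochondrial RNA polymerase, had 253 ± 9.28 and 235 ± 24.6 RPKM. None of these 3 passed the test, with adjusted p of 0.267 or more.

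Around the exit of the peptide tunnel, 1 of 8 members was called, MRPL45, beside 14.3% of all genes tested. The other members there were MRPL17, MRPL22, MRPL23, MRPL24, MRPL39, MRPL44 and MRPL47, and the 8 estimates ran from -0.12 for MRPL47 to 0.25. MRPL23 was the least even of all members across the dome-shaped libraries, with 114, 62.7, 90.2 and 63.1 RPKM in libraries 1 to 4 and a coefficient of variation of 29.8%. The central protuberance, the crest of the large subunit that faces the small subunit, was covered by MRPL18, MRPL40, MRPL46, MRPL48 and MRPL55, with estimates from -0.07 to 0.14 and 0 of 5 called. MRPL2 and MRPL16, which lie by the peptidyl transferase center where amino acids are joined, had log2 fold changes of -0.20 and -0.04, and neither was called.

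In the small subunit, none of the 3 proteins of message entry and decoding passed the test. Their estimates were 0.23 (SE 0.07) for MRPS5, 0.04 (SE 0.08) for MRPS24 and 0.01 (SE 0.11) for MRPS12. An estimate above 0 was held by 8301 of all 15597 genes tested. Beside MRPS5, MRPS24 had means of 78.8 ± 1.56 and 81.4 ± 7.97 RPKM in primed and dome-shaped cells. MRPS12, the counterpart of the bacterial protein that guards decoding accuracy, had 60.6 ± 8.04 and 60.9 ± 6.29 RPKM. In the head, 0 of 7 members were called (MRPS7, MRPS9, MRPS10, MRPS14, MRPS33, MRPS35 and DAP3), with estimates from -0.20 for MRPS35 to 0.16 for DAP3. DAP3, the GTP-binding subunit that carries no MRP name, had 67.7, 62.7, 42.2 and 53.7 RPKM in primed and 66.0, 68.8, 55.8 and 60.2 RPKM in dome-shaped libraries, and the groups overlapped. Without primed replicate 3, its lowest library, the DAP3 estimate was 0.03. In the platform, 0 of 4 were called (MRPS6, MRPS11, MRPS18C and MRPS21), with estimates from -0.20 to 0.05. No member of the head, the platform or the central protuberance had an unadjusted limma p under 0.05, which 2526 genes (higher) and 2404 genes (lower) of all 15597 tested had.

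The remaining members with the highest estimates were also not called. MRPL21, a counterpart of bacterial L21, had means of 55.8 ± 4.95 and 65.1 ± 7.98 RPKM in primed and dome-shaped cells (log2 fold change 0.21, adjusted p = 0.189). MRPS17, a counterpart of bacterial S17, had 70.3 ± 5.28 and 81.0 ± 10.9 RPKM (0.19, adjusted p = 0.237). MRPL41 had the highest estimate of all members, 0.29, with values of 8.70, 11.2, 13.3 and 9.95 RPKM in primed and 12.8, 10.98, 12.5 and 17.4 RPKM in dome-shaped libraries. That estimate ranged from 0.16, without dome-shaped replicate 4, to 0.39 as single libraries were left out. The groups overlapped, the adjusted p was 0.267, and the lowest library had 51 reads for this gene.

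Members were also divided by ancestry. Of 42 members with a bacterial counterpart, 0 were higher and 2 lower in dome-shaped cells (MRPL34 and MRPS2), or 4.76% called beside 14.3% of all genes tested, with a median log2 fold change below 0.01 in size. Of 25 members found in mitochondria only, 1 was higher (MRPL45) and 1 lower (MRPS26), or 8.0%, with a median of -0.01. At an unadjusted p under 0.05, 2 were higher and 4 lower in the first class and 1 higher and 5 lower in the second. Of all 15597 genes tested, 2526 were higher and 2404 lower at that level. The difference between these classes was not tested.

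The members spanned a wide range of levels, and this order was shared by both states. Their median level over all 8 libraries was 67.6 RPKM, beside 12.9 RPKM for all genes tested, and 98.5% of members lay above the latter. The median was 67.1 RPKM in the large and 68.8 RPKM in the small subunit. In the large subunit MRPL51 was the most abundant at 257 ± 12.7 and 256 ± 20.2 RPKM in primed and dome-shaped cells, ahead of MRPL12 and MRPL20. MRPL20, a counterpart of a bacterial protein of early subunit assembly, had 145 ± 8.08 and 132 ± 19.8 RPKM. In the small subunit MRPS21 led with 251 ± 17.9 and 250 ± 17.3 RPKM, ahead of MRPS34 and MRPS6. The ranges of MRPL51, MRPS21 and MRPL12 overlapped across libraries, so their order is not set apart from their spread.

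At the low end of the large subunit were MRPL41 and MRPL55, the latter at 20.3 ± 1.38 and 19.3 ± 1.43 RPKM in primed and dome-shaped cells. In the small subunit MRPS36 was lowest, at 17.1 ± 1.86 and 18.9 ± 1.35 RPKM, followed by MRPS35 at 23.9 ± 3.01 and 20.7 ± 1.83 RPKM. The name MRPS36 is older: the protein is now known as a component of the 2-oxoglutarate dehydrogenase complex, and the RefSeq gene table gives it as KGD4. The Spearman correlation of the 68 levels between a primed and a dome-shaped library was 0.921 to 0.982 over 16 pairs, and 0.931 to 0.991 over the 12 pairs within a group. Across the members, level and deposited gene length were related by a Spearman rho of -0.41 (n = 68 genes, which share the libraries and the length term of RPKM), and both values are descriptions only.

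**Figure D4:**
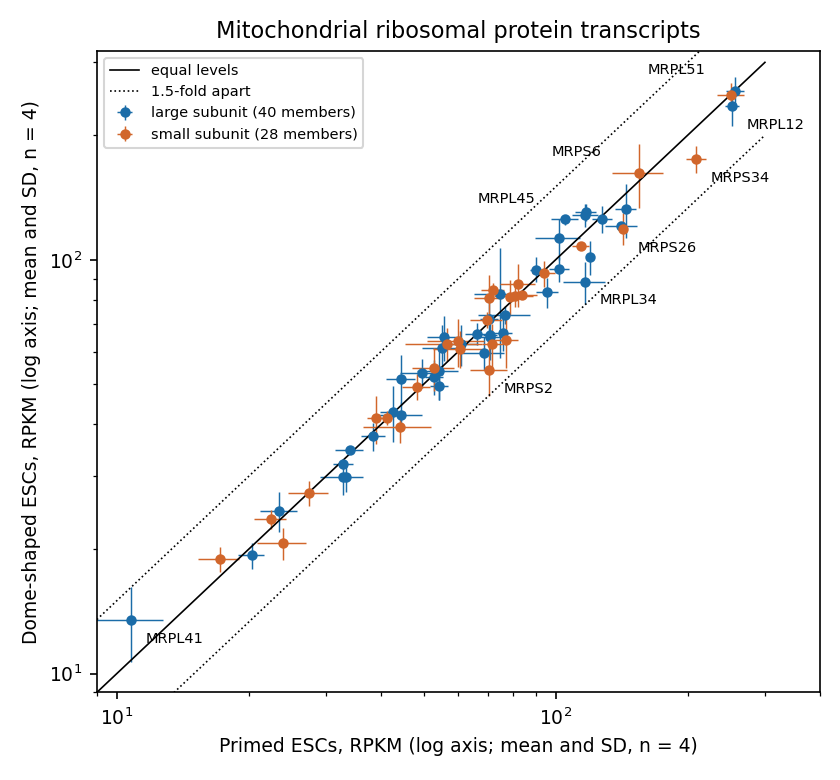
Mean RPKM in dome-shaped ESCs against mean RPKM in primed ESCs (both log axes, bars are SD, n = 4 each) for the 68 members tested, large subunit in blue and small subunit in orange. All points lie between the dotted lines at 1.5-fold, from MRPL41 at the lower left to MRPL51 at the upper right.

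Variation among replicates was modest. The median coefficient of variation of the members was 7.36% in primed and 8.77% in dome-shaped libraries, beside 13.8% and 16.7% for all genes tested and 9.42% and 12.03% for genes in the members' range. The large subunit members summed to 3203 ± 89.2 and 3136 ± 73.8 RPKM in primed and dome-shaped libraries, and the small subunit members to 2217 ± 108 and 2161 ± 89.0 RPKM (SD, n = 4 each). The ratio of the sums was 1.45 ± 0.05 in primed and 1.45 ± 0.04 in dome-shaped libraries. Together the members made up 0.814 ± 0.023% of all RPKM in primed and 0.785 ± 0.030% in dome-shaped libraries, and the ranges of the groups overlapped (0.780 to 0.834% and 0.742 to 0.811%). Members shared some of their ups and downs by library: of the 68, 20 had their lowest value of all in dome-shaped replicate 1 and 15 in primed replicate 4, the other libraries holding 2 to 12 each. The same count was not made over all genes tested. The median log2 deviation of members from their own means was -0.0568 in dome-shaped replicate 1 and -0.0659 in primed replicate 4. For all genes tested it was 0.032 and 0.0164.

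**Figure D5:**
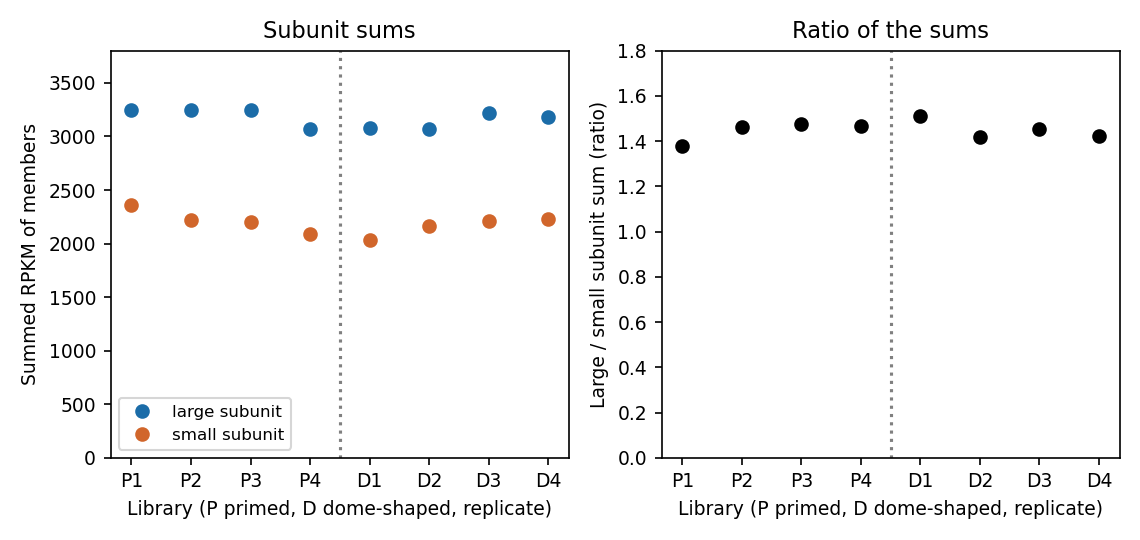
Summed RPKM of the large (blue) and small (orange) subunit members in each library, and the ratio of the sums, with primed libraries P1 to P4 left and dome-shaped libraries D1 to D4 right of the dotted line. The sums of both groups overlap, and the ratio lies between 1.38 and 1.51 in all 8 libraries.

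MRPL27, which lies close to the peptidyl transferase center, and MRPS31, a protein of the head, were listed at 0 RPKM in every library and could not be tested. Both names were carried by other rows that the choice of members did not take. The row whose further matches name MRPL27 had means of 73.7 ± 13.4 and 78.1 ± 8.29 RPKM in primed and dome-shaped libraries (log2 fold change 0.10, adjusted p = 0.675). The most abundant such row for MRPS31 had 38.4 ± 3.90 and 36.8 ± 2.53 RPKM (-0.06, adjusted p = 0.704). MRPS18A, whose row fell just under the identity limit, had 53.1 ± 10.8 and 51.9 ± 2.82 RPKM (-0.01, adjusted p = 0.969). A further 6 subunit proteins were found only through other names or matches, and 0 of these 6 were called: MRPL3, MRPL4, MRPL57, MRPL58, AURKAIP1 and PTCD3. At an unadjusted p under 0.05, also 0 of them differed, beside 2526 higher and 2404 lower of all 15597 genes tested. PTCD3, a pentatricopeptide repeat protein that sits by the message entry, had means of 76.3 ± 5.35 and 85.9 ± 5.58 RPKM in primed and dome-shaped libraries (adjusted p = 0.177). AURKAIP1, a further small subunit protein without an MRP name, had 97.8 ± 6.63 and 90.6 ± 3.95 RPKM (adjusted p = 0.336).

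The factors that assemble and run this ribosome are described by their counts, to be read beside the 14.3% called among all genes tested. Counts at an unadjusted p under 0.05, here and for the lists below, are to be read beside 2526 higher and 2404 lower of all 15597 genes tested. Among assembly factors, 1 of 19 tested was called, with 0 higher and 1 lower (at an unadjusted p under 0.05, 0 and 4). It was GTPBP10, a GTPase of large subunit maturation, with 24.99, 24.2, 29.0 and 24.7 RPKM in primed and 19.6, 21.8, 18.8 and 20.8 RPKM in dome-shaped libraries 1 to 4. The groups did not overlap, and the log2 fold change was -0.33 (SE 0.09, adjusted p = 0.0433). None of the 8 fits without a library kept this call. ERAL1, which binds the small subunit's ribosomal RNA, and DHX30, an RNA helicase, had log2 fold changes of 0.24 and -0.11 and were not called.

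Among factors of mitochondrial translation, 0 of 14 were called by limma, while 2 were higher and 0 lower at an unadjusted p under 0.05. TUFM, the elongation factor that brings transfer RNAs, had means of 188 ± 8.97 and 189 ± 10.4 RPKM in primed and dome-shaped cells. GUF1 and MTIF2, GTPases of elongation and initiation, had log2 fold changes of 0.23 (adjusted p = 0.109) and 0.22 (adjusted p = 0.117). Among factors of mitochondrial transcription and RNA processing, 0 of 13 were called, while 1 was higher and 4 were lower at the unadjusted level. TFAM, which packages and transcribes mitochondrial DNA, had 59.8 ± 5.56 and 57.9 ± 6.58 RPKM. POLRMT, the mitochondrial RNA polymerase, had 45.2 ± 2.90 and 38.3 ± 2.52 RPKM with groups that did not overlap (adjusted p = 0.0793).

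For DNA maintenance, 0 of 8 genes were called, while 1 was higher and 2 were lower at an unadjusted p under 0.05. TWNK, the helicase of mitochondrial DNA replication, came closest, with 25.3, 23.6, 26.03 and 26.5 RPKM in primed and 13.8, 20.03, 19.8 and 21.0 RPKM in dome-shaped libraries. Its groups did not overlap, and the log2 fold change was -0.44 (SE 0.13, adjusted p = 0.0533). Of the nuclear regulators of mitochondrial genes, 0 of 7 tested were called, while 1 was lower at the unadjusted level. NRF1, a factor known for driving many nuclear genes of mitochondrial proteins, had 9.48 ± 2.49 and 8.26 ± 2.10 RPKM, and GABPA had 17.3 ± 1.30 and 19.0 ± 1.15 RPKM. MYC, a general regulator of growth and ribosome genes, was uneven among dome-shaped libraries: it had 47.8, 63.8, 48.5 and 44.9 RPKM in primed and 3.37, 25.03, 10.8 and 61.5 RPKM in dome-shaped libraries (adjusted p = 0.135).

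The messages that this ribosome translates were largely not measurable in the deposited table. Of the 13 mitochondrially encoded proteins, rows for 8 were listed at 0 RPKM in all libraries, among them CYTB, COX2 and COX3, whose RNA is abundant in most cells. ND2 had at most 0.057 RPKM. The rows named ND4, ND4L, ND5 and COX1 had values, and of these 4 only ND4 was called, with means of 476 ± 21.1 and 647 ± 57.8 RPKM in primed and dome-shaped libraries (log2 fold change 0.44, SE 0.08, adjusted p = 0.00976). Of the 4, 2 were higher and 0 lower at an unadjusted p under 0.05. ND5 was the other one higher at that level (log2 fold change 0.27, SE 0.09, limma adjusted p = 0.0713). Where the reads of these rows originated was not tested, and their levels are given only as listed.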

How the data were processed

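The authors deposited a table of RPKM values for 8 libraries, with protein matches and, per the file headers, a query length, the percent identity of the best match and a match score. TopHat2 2.0.9, Bowtie2 2.0.6 and HTSeq 0.6.1 are listed in the submitters' processing notes. Neither the genome build nor the use of strand in counting is given in these sources. Of 33138 deposited rows, 17 were blank. Members and gene lists were chosen with earlier results of these data known.

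Symbols of list genes came from the table, from RefSeq accessions of matches scoring 0.95 of the best match or more (gene table of assembly T2T-MFA8v1.1), or, for 25 genes, from protein names paired by hand after the table had been seen. Among the members, 50 had a RefSeq symbol, equal to the member's name in 49. Reads recovered from RPKM and query length were whole within 0.01 for 71.6% to 73.4% of values under 50 reads, too few for a count test. Depth limits the members little: the lowest library had 51 reads for the scarcest member, and the median member had 731 in its lowest library.

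Values were tested as log2(RPKM + 1) with limma 3.58.1 in R 4.3.3 (lmFit, eBayes with a trend, two-sided, no covariates) for genes that reached 1 RPKM in 4 or more libraries, with Benjamini-Hochberg adjustment across these genes. Fold changes on this scale understate the changes of low genes. The script was tested on simulated data. As alternatives, the pseudocount was set to 0.1 or 0.5, the filter was dropped or set to a mean of 5 RPKM, and the following were tried: median-of-ratios scaling, quantile normalization, summed rows of a name, each library left out, a block by the number after CES in the titles and MRPS30 counted as large. Members named with full values were, per subunit, the 3 highest and 2 lowest in level, the called ones, the 3 largest estimates in each direction, those below the filter and those without an MRP name; of each list, called genes are named. Other genes were chosen after their values were seen. Promoters and protein sequences were not used here.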

Additional observations from a re-analysis of the deposited data

Results flagged for a closer look

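In 5 of 48 groups of 4 libraries examined, 1 library lay far from the other 3, measured by its gap to the nearest value over the whole range (above Dixon's critical value); chance gives this in about 1 in 20 groups. MRPL37 stood at 121.73 RPKM in primed replicate 3 and at 118.8 to 119.28 RPKM in the other primed libraries, a small gap in a narrow range. For MRPS6, a platform protein, dome-shaped replicate 1 gave 119.74 RPKM and the other dome-shaped libraries 172.36 to 179.21 RPKM. MRPS36 stood at 19.93 RPKM in primed replicate 1 and at 16.13 to 16.26 RPKM in the other primed libraries. The summed RPKM of the large subunit members was 3069.0 in primed replicate 4 and 3246.9 to 3248.1 in the other primed libraries. The ratio of large to small subunit sums was 1.38 in primed replicate 1 and 1.46 to 1.48 in the other primed libraries. None of these was examined for a cause.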

How the results depend on the processing

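The subunit medians stayed near 0, and the 4 calls depended on the libraries and settings used. Under every alternative run, the median log2 fold change moved by less than 0.04 for the large and 0.068 for the small subunit. These 2 limits are the SD across libraries of the median log2 deviation of members from their own means. They are not a spread of the fold change itself. The median was -0.05 to -0.01 for the large and -0.01 to 0.05 for the small subunit. With each library left out, large subunit calls ranged from 0 to 1 higher and 0 to 1 lower, and small subunit calls from 0 to 1 higher and 0 to 3 lower. Calls over all genes ranged from 381 to 1289 higher and from 655 to 1441 lower. The 1 factor called lower, GTPBP10, was lost (0 lower) whichever library was left out. With the replicate block by the number after CES, 0 members and 0 factors were called, and 303 genes were higher and 593 lower. The limma adjusted p there was 0.105 for MRPL34, 0.124 for MRPL45, 0.112 for MRPS2 and 0.138 for MRPS26. Same-numbered libraries had correlations of -0.098 to 0.125, and not every library correlated best with its own number. These correlations used deviations from group means that include libraries sharing a number. They therefore cannot show whether same-numbered libraries are paired. Large subunit calls were 0 higher with median-of-ratios scaling and 0 lower with no filter. Small subunit calls were 1 higher and 2 lower with quantile normalization, but MRPS26 was not among the 2 lower there. They were 1 lower with a pseudocount of 0.1 and with median-of-ratios scaling. With no filter and with a mean of at least 5 RPKM they were 0 lower. No factor was called lower without the filter (0). Estimates near 0 took the opposite sign in 11 fits. With single libraries left out, MRPL51 ranged from -0.0551 to 0.0294 (above 0 without primed replicates 2 and 3 and dome-shaped replicates 2 and 3), and it was 0.0214 with the replicate block. MRPS21 ranged from -0.0506 to 0.0331 (above 0 without replicates 1 and 2 of either group). MRPS6 ranged from -0.0317 to 0.1904 (below 0 without primed replicate 3 and without dome-shaped replicate 2). The cause was not tested.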
